A study of Homo sapiens with 18 samples.

Results

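The HOX gene clusters were examined in a ChIP-seq dataset of Ser5 Pol II, the form of RNA polymerase II that carries phosphate on serine 5 of the heptad repeats in its tail. Members were all deposited regions that overlapped 4 windows of the hg19 genome: chr7:27130000-27290000 for HOXA, chr17:46600000-46815000 for HOXB, chr12:54330000-54452000 for HOXC and chr2:176940000-177060000 for HOXD. This gave 18 of the 12123 regions in the table, with 6 in HOXA, 4 in HOXB, 5 in HOXC and 3 in HOXD. Within the windows, regions were taken by position alone. The clusters themselves were proposed with earlier results of these data known.

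The cells were Rh30, an alveolar rhabdomyosarcoma line that expresses the fusion transcription factor PAX3-FOXO1. The fusion in all groups carried an FKBP tag, which lets the degrader dTAG47 direct the fusion protein to destruction. Cells received the solvent DMSO, 500 nM dTAG47 for 2 h or 500 nM dTAG47 for 4 h, with 2 libraries, A and B, in each of the 3 groups. The labels name no clone, passage or separate culture for the libraries, so each p-value describes the spread between the libraries at hand, possibly a technical one. The estimate of that spread is shared in large part over all regions, so a region's own libraries weigh little in it.

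HOX genes encode homeodomain transcription factors that set positional identity along the body axis. They sit in 4 clusters, and within a cluster the order of the genes along the chromosome follows the order in which they act from head to tail. Cells of the trunk and limbs commonly keep part of this pattern in culture, with active and Polycomb-silenced stretches side by side in a cluster. Phosphorylation of serine 5 marks Pol II that has started transcription and lies near a start site, often paused.

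In the RefSeq annotation of GRCh38.p14, the clusters hold 39 protein-coding HOX genes, with 11 in HOXA, 10 in HOXB, 9 in HOXC and 9 in HOXD. That annotation was used for names and gene order only. HOXA and HOXB have their posterior genes, HOXA13 and HOXB13, at the higher coordinates. HOXC and HOXD run the other way, with HOXC13 and HOXD13 at the lower coordinates. HOXC4, HOXC5 and HOXC6 lie at the higher end of HOXC and HOXD1 at the higher end of HOXD. An annotation of hg19 was not used here, so no region was tied to a gene, a promoter, an exon or an intron. Regions are numbered within each cluster by increasing coordinate.

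Total counts per library ran from 962251 to 1792013, and the HOX regions took between 0.114% and 0.129% of them. Each HOX region had between 42 and 185 counts per library. Values below are CPM, counts brought to a common library size with TMM factors. All regions have the same width of 400 bases, so no correction for length was needed. Input signal, copy number and mappability were not examined, so levels of different regions and clusters are set side by side as measured. The 3 regions with the highest counts in the table took a larger share of the counts in library B than in library A of each group. That share, library B second, was 1.77% against 2.61% in DMSO, 2.61% against 3.21% after 2 h and 2.61% against 4.17% after 4 h. For each letter it was also larger in both treated groups than in DMSO.

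The first question was how much Ser5 Pol II the clusters carried while the fusion was present. In DMSO every HOX region lay in the middle of the range of the table. The mean in DMSO ran from 47.2 CPM at HOXC region 5 to 101 CPM at HOXA region 5, a 2.13-fold range. These 2 regions stood at percentiles 29.0 and 79.3 of all regions. The median of the 18 regions was 66.2 CPM, and the median of all regions was 63.8 CPM, with quartiles of 44.2 and 92.7 CPM.

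Regions were not spread evenly over the clusters. HOXC had 4.10 regions per 100 kb of window and HOXA 3.75, against 2.5 in HOXD and 1.86 in HOXB. The mean level per region in DMSO was 79.0 ± 0.911 CPM in HOXA, 70.5 ± 10.4 CPM in HOXB, 62.4 ± 0.775 CPM in HOXC and 52.8 ± 6.25 CPM in HOXD (SD between libraries, n = 2 each). In both DMSO libraries the order was HOXA, HOXB, HOXC and HOXD from high to low. HOXB, with 63.2 CPM in DMSO library A and 77.8 CPM in DMSO library B, was close to HOXC in library A (63.0 CPM) and close to HOXA in library B (78.4 CPM), and the gap between its own libraries was larger than either distance. Regions of a cluster are not replicates, and this order was not tested.

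**Figure D1:**
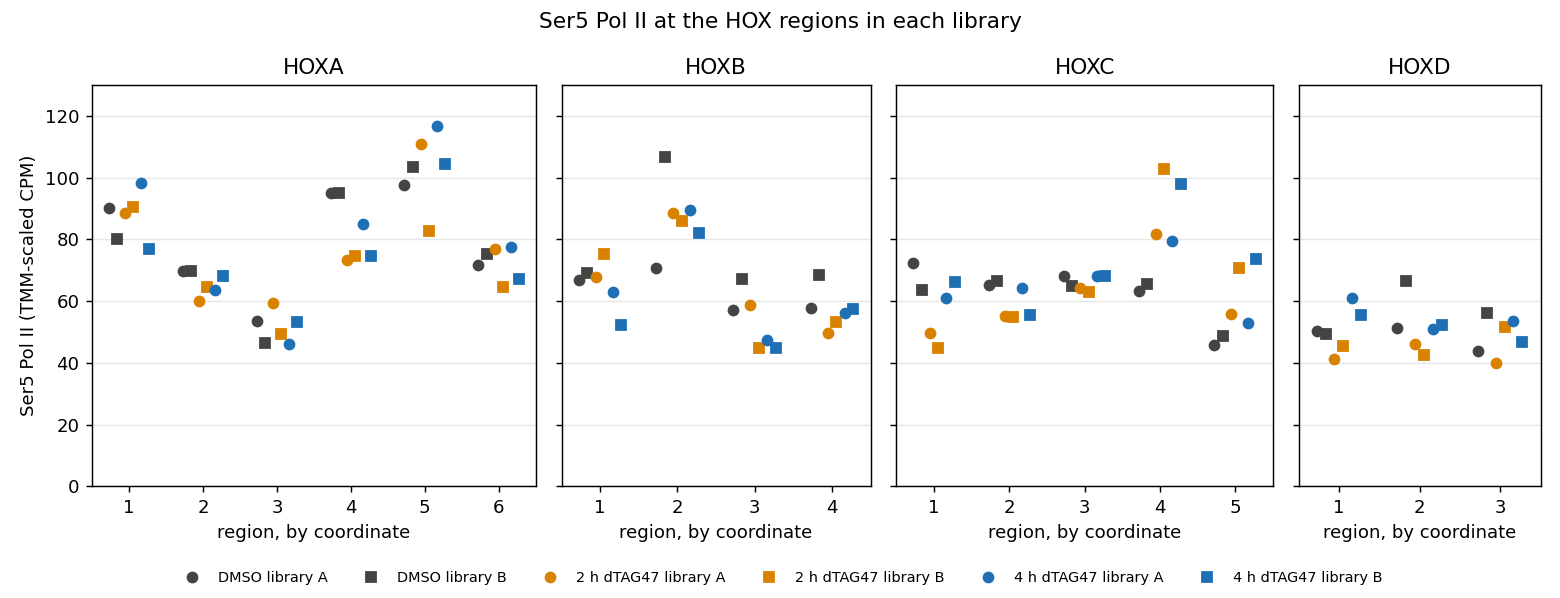
Ser5 Pol II in TMM-scaled CPM (vertical axis) at each of the 18 HOX regions, ordered by coordinate within each cluster (horizontal axis). Circles are library A and squares library B of DMSO (grey), 2 h dTAG47 (orange) and 4 h dTAG47 (blue). In HOXC regions 4 and 5 the 4 treated libraries lie above both DMSO libraries. In HOXA regions 2 and 4, HOXB region 4 and HOXC region 2 they lie below. Over all regions, both libraries lie below DMSO at 21.8% (2 h) and 20.6% (4 h), and above it at 21.9% and 20.2%. The share of all regions with all 4 treated libraries on one side was not counted.

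In HOXA the 6 regions lay between 12.3 and 17.3 kb apart and covered the lower part of the window, with the first region 5.9 kb above its lower edge. The profile along the cluster had 2 higher stretches with a dip between them. HOXA region 1 (chr7:27135932-27136332) had 90.2 and 80.1 CPM in DMSO libraries A and B, 88.7 and 90.5 CPM at 2 h, and 98.3 and 76.7 CPM at 4 h. HOXA region 2 (chr7:27153095-27153495) had 69.7 and 69.8 CPM in DMSO, 60.0 and 64.6 CPM at 2 h, and 63.6 and 68.2 CPM at 4 h. The lowest of the cluster was HOXA region 3 (chr7:27170345-27170745), with 53.5 and 46.5 CPM in DMSO, 59.4 and 49.4 CPM at 2 h, and 46.0 and 53.3 CPM at 4 h. Among these 3, the groups overlapped at regions 1 and 3 at both times, while region 2 was below DMSO in all 4 treated libraries.

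The strongest signal of any HOX region came from HOXA region 5 (chr7:27195632-27196032), with 97.7 and 103 CPM in DMSO, 111 and 82.9 CPM at 2 h, and 117 and 104 CPM at 4 h. Its 2 h libraries stood on either side of DMSO, and both 4 h libraries were above it. At HOXA region 6 (chr7:27212950-27213350), nearest the HOXA13 end, the values were 71.8 and 75.3 CPM in DMSO, 76.8 and 64.6 CPM at 2 h, and 77.5 and 67.1 CPM at 4 h. The groups overlapped there at both times.

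HOXA region 4 (chr7:27182611-27183011) had the largest differences from DMSO of this cluster, and it did not pass the test. It had 95 and 95.1 CPM in DMSO, 73.3 and 74.5 CPM at 2 h, and 85.1 and 74.6 CPM at 4 h. At 2 h the log2 fold change was -0.36 (SE 0.149, 95% interval -0.66 to -0.06, edgeR adjusted p = 0.223, unadjusted p = 0.0190), or -22.3%. At 4 h it was -0.23 (SE 0.150, edgeR adjusted p = 0.542). The neighbours on either side of it had log2 fold changes of 0.12 and -0.04 at 2 h.

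The 4 regions of HOXB were the most widely spaced, with gaps of 32.5, 15.4 and 102.5 kb. No region was listed in the lowest 55.2 kb of the window, the part next to its HOXB1 end. HOXB region 1 (chr17:46655193-46655593) had 67.0 and 69.1 CPM in DMSO, 67.7 and 75.3 CPM at 2 h, and 63.0 and 52.2 CPM at 4 h. HOXB region 2 (chr17:46687739-46688139) had the highest DMSO mean of the cluster, but its DMSO libraries differed most of all HOX regions, with 70.7 CPM in library A and 107 CPM in library B. Its treated libraries lay between these, at 88.7 and 85.9 CPM at 2 h and 89.5 and 82.0 CPM at 4 h, and the log2 fold changes were near 0 at 2 h (95% interval -0.33 to 0.32) and -0.02 at 4 h. The value at 2 h turned with the DMSO library used, from -0.29 without library A to 0.31 without library B.

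The upper regions of HOXB, toward HOXB13, had lower values after dTAG47, and none passed the test. HOXB region 3 (chr17:46703165-46703565) had 57.2 and 67.1 CPM in DMSO, 58.7 and 44.8 CPM at 2 h, and 47.3 and 44.7 CPM at 4 h. The groups overlapped at 2 h (log2 fold change -0.25, SE 0.179, edgeR adjusted p = 0.576) and did not at 4 h, where the log2 fold change was -0.42 (SE 0.187, 95% interval -0.79 to -0.04, edgeR adjusted p = 0.314, unadjusted p = 0.0310). HOXB region 4 (chr17:46805705-46806105), 102.5 kb further on, had 57.8 and 68.4 CPM in DMSO, 49.6 and 53.2 CPM at 2 h, and 56.1 and 57.5 CPM at 4 h. All 4 treated libraries were below both DMSO libraries there, with log2 fold changes of -0.29 (SE 0.174, edgeR adjusted p = 0.474) and -0.14 (SE 0.174, adjusted p = 0.806). At 4 h the separation was narrow, with 57.5 CPM in library B against 57.8 CPM in DMSO library A. Both regions had their higher DMSO value in library B. Without that library the log2 fold changes of region 3 were -0.13 at 2 h and -0.29 at 4 h, and those of region 4 were -0.16 and -0.02. Without 2 h library B, region 3 had -0.07 at 2 h.

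HOXC showed the widest spread of changes within a cluster, and it held the lowest and the highest log2 fold change of all HOX regions at 2 h. From its HOXC13 end to its HOXC4 end the log2 fold changes at 2 h were -0.53, -0.26, -0.07, 0.51 and 0.42. At 4 h, in the same order, they were -0.12, -0.12, 0.03, 0.44 and 0.38. The first 3 regions were below DMSO in both 2 h libraries and the last 2 above it, so the 2 h and DMSO groups overlapped at none of the 5. Over the whole table, both 2 h libraries were below DMSO at 21.8% of regions and above it at 21.9%. At region 3 the separation was narrow, with 64.2 CPM in 2 h library A against 65.0 CPM in DMSO library B. Summed over the cluster the differences largely cancelled at 2 h, with a mean at 103% of DMSO, and less so at 4 h, with 110%. None of the 5 regions passed the test at either time, and the trend along the cluster was not tested.

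HOXC region 1 (chr12:54368255-54368655) had 72.4 and 63.6 CPM in DMSO, 49.6 and 44.8 CPM at 2 h, and 61.1 and 66.1 CPM at 4 h. The 2 h libraries lay below all others, and the 4 h libraries overlapped with DMSO. At 2 h the log2 fold change was -0.53 (SE 0.173, 95% interval -0.88 to -0.18, edgeR adjusted p = 0.0894, unadjusted p = 0.00356), or -30.8%. At 4 h it was -0.12 (SE 0.167, edgeR adjusted p = 0.848). Set directly against 2 h, the 4 h signal had a log2 fold change of 0.42 (SE 0.184, unadjusted p = 0.0288, edgeR adjusted p = 0.998).

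Toward the middle of the cluster the differences were smaller. HOXC region 2 (chr12:54389223-54389623) had 65.3 and 66.4 CPM in DMSO, 55.2 and 54.7 CPM at 2 h, and 64.3 and 55.4 CPM at 4 h. All 4 treated libraries lay below both DMSO libraries there (log2 fold change -0.26 at 2 h, SE 0.168, edgeR adjusted p = 0.511). HOXC region 3 (chr12:54394088-54394488), 4.9 kb above region 2, had 68.0 and 65.0 CPM in DMSO, 64.2 and 63.1 CPM at 2 h, and 68.1 and 68.2 CPM at 4 h. Regions 2 and 3 are the closest neighbours of all HOX regions. The 95% intervals of the log2 fold change at 2 h were -0.60 to 0.08 at region 2 and -0.39 to 0.26 at region 3, and both include 0.

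HOXC region 4 (chr12:54412113-54412513) had the lowest unadjusted p of all HOX regions at both times. Its values were 63.2 and 65.7 CPM in DMSO, 81.7 and 103 CPM at 2 h, and 79.4 and 98.0 CPM at 4 h. The 4 treated libraries were above both DMSO libraries, and in both treated groups library B was the higher one. At 2 h the log2 fold change was 0.51 (SE 0.159, 95% interval 0.19 to 0.83, edgeR adjusted p = 0.0683, unadjusted p = 0.00226), or 42.7%. At 4 h it was 0.44 (SE 0.164, 95% interval 0.11 to 0.76, edgeR adjusted p = 0.193).

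HOXC region 5 (chr12:54447307-54447707), 35.2 kb further toward the HOXC4 end, had the lowest DMSO level of the 18 regions and a similar pattern. It had 45.9 and 48.6 CPM in DMSO, 55.9 and 70.7 CPM at 2 h, and 52.9 and 73.5 CPM at 4 h, again with all 4 treated libraries above DMSO and library B the higher. The log2 fold change was 0.42 at 2 h (SE 0.184, 95% interval 0.05 to 0.79, edgeR adjusted p = 0.265) and 0.38 at 4 h (SE 0.189, edgeR adjusted p = 0.383).

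The values at HOXC regions 4 and 5 moved with the settings of the fit. With only the DMSO and 2 h libraries in the fit, region 4 passed the threshold at 2 h (log2 fold change 0.52, edgeR adjusted p = 0.0350). Over all regions that fit called 81 lower and 366 higher, against 48 and 269 with all 6 libraries. The 3 highest regions of the table took more of the counts in the B libraries, as given above, and for each letter more in the treated groups than in DMSO. A fit with that share as a covariate takes its effect from the differences between libraries A and B within groups. The share therefore overlaps in part with treatment and also follows the library letter, and the part of these regions was not tested. In that fit region 4 had log2 fold changes of 0.35 at 2 h and 0.20 at 4 h (edgeR adjusted p = 0.272 and 0.738), and region 5 had 0.20 and 0.05 (adjusted p = 0.681 and 0.969). Over the alternatives that gave one, the edgeR, limma-voom or DESeq2 adjusted p of region 4 ran from 0.0134 to 0.530 at 2 h and from 0.0531 to 0.888 at 4 h, and that of region 5 from 0.135 to 0.765 and from 0.142 to 0.969. Without library B of the treated group, the log2 fold change of region 5 was 0.25 at 2 h and 0.17 at 4 h. For region 1 at 2 h the adjusted p ran from 0.0296 to 0.414 over the same alternatives, with log2 fold changes between -0.61 and -0.43.

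**Figure D2:**
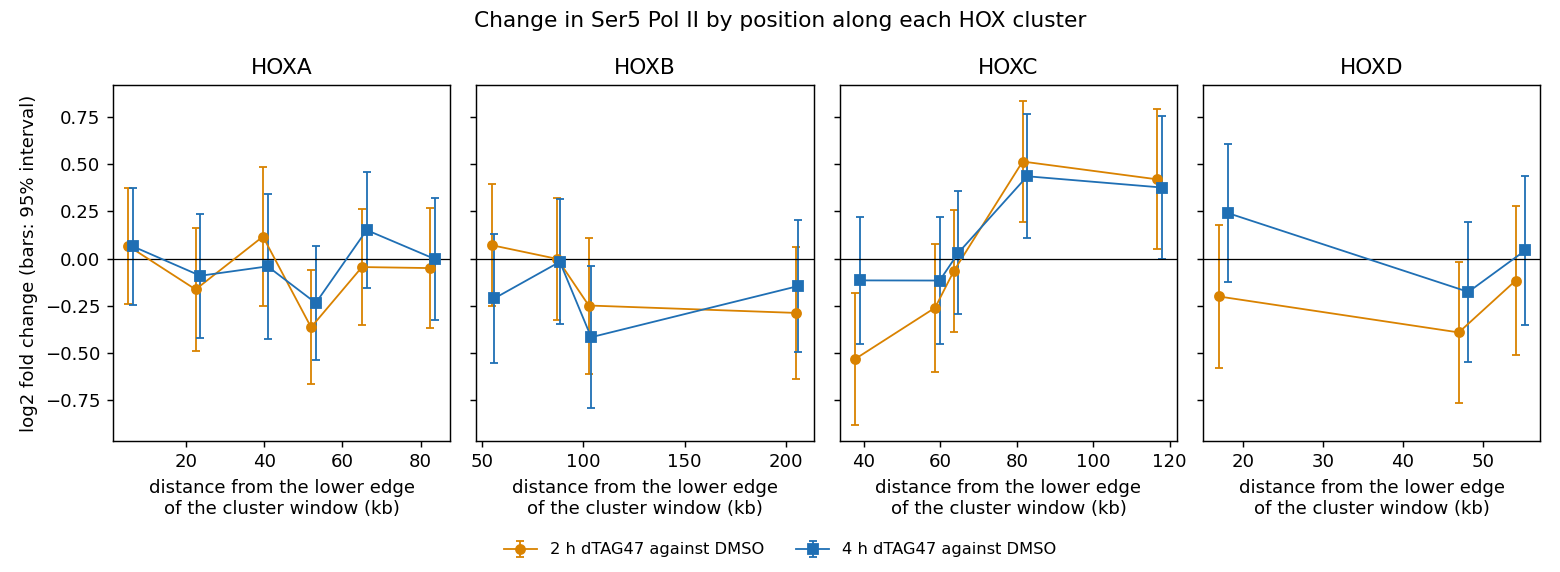
Log2 fold change of Ser5 Pol II against DMSO (vertical axis) by distance in kb from the lower edge of each cluster window (horizontal axis), at 2 h (orange circles) and 4 h (blue squares) of dTAG47. Points are estimates from the fit of 6 libraries, bars are 95% intervals, lines join neighbouring regions, and the 2 times are drawn slightly apart. In HOXC the 2 h values run from -0.53 at the HOXC13 end to 0.51 and 0.42 at the regions nearest the HOXC4 end.

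HOXD carried the least Ser5 Pol II, and its 3 regions lay in the lower part of its window, from 17.6 to 54.7 kb above the lower edge. No region was listed in the upper part, next to HOXD1. HOXD region 1 (chr2:176957640-176958040), nearest the HOXD13 end, had 50.2 and 49.3 CPM in DMSO, 41.2 and 45.6 CPM at 2 h, and 61.1 and 55.4 CPM at 4 h. Both 2 h libraries were below DMSO and both 4 h libraries above it. The log2 fold changes were -0.20 at 2 h (SE 0.189, edgeR adjusted p = 0.695) and 0.24 at 4 h (SE 0.181, edgeR adjusted p = 0.632). For 4 h against 2 h the log2 fold change was 0.44 (SE 0.192, 95% interval 0.05 to 0.83, unadjusted p = 0.0267, edgeR adjusted p = 0.998), with the lowest unadjusted p of the HOX regions in that comparison.

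HOXD region 2 (chr2:176987586-176987986) had 51.3 and 66.4 CPM in DMSO, 46.1 and 42.6 CPM at 2 h, and 51.0 and 52.2 CPM at 4 h. Its 2 h libraries were below DMSO, with a log2 fold change of -0.39 (SE 0.186, 95% interval -0.77 to -0.02, edgeR adjusted p = 0.317, unadjusted p = 0.0416), and its 4 h libraries overlapped with DMSO (log2 fold change -0.18, adjusted p = 0.768). Without DMSO library B the 2 h value was -0.20. HOXD region 3 (chr2:176994707-176995107), 7.1 kb above it, had 43.7 and 56.1 CPM in DMSO, 39.8 and 51.7 CPM at 2 h, and 53.6 and 46.9 CPM at 4 h. The groups overlapped there at both times.

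Counted over all 4 clusters, Ser5 Pol II after 2 h of dTAG47 passed the threshold at 0 of the 18 regions (edgeR quasi-likelihood test, adjusted p under 0.05 over all regions). Over the whole table, 0.396% of regions were called lower and 2.22% higher, so a count of 0 lies near the background. Without adjustment, p was under 0.05 for 3 HOX regions on the lower side and 2 on the higher side, against 5.44% and 8.88% of all regions. These were HOXA region 4, HOXC region 1 and HOXD region 2 on the lower side and HOXC regions 4 and 5 on the higher side. limma-voom called 0 of the 18 as well, and had 2 regions on each side at an unadjusted p under 0.05. DESeq2 also called 0, had 1 region on each side at that level, and gave no adjusted p for 13 of the 18. Over all regions limma-voom called 43 lower and 302 higher, and DESeq2 only 3 lower and 96 higher.

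The direction at 2 h was more often down than up. The log2 fold change was below 0 at 13 of the 18 regions, or 72.2%, and at 51.6% of all regions. Its median was -0.09 in the HOX regions, with a range from -0.53 to 0.51, against -0.01 over all regions. Leaving out 1 library moved it to between -0.175 (without DMSO library A) and -0.0478 (without DMSO library B), and total count scaling gave -0.152. By cluster the median was -0.05 in HOXA, -0.12 in HOXB, -0.07 in HOXC and -0.20 in HOXD. Both 2 h libraries were below both DMSO libraries at 8 HOX regions and above them at 2, and these arrangements were found at 21.8% and 21.9% of all regions. No test was made over the 18 regions, which were proposed with results of these data known.

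After 4 h, 0 of the 18 regions passed the threshold in edgeR, where 0.487% of all regions were called lower and 1.52% higher. HOXB region 3 on the lower side and HOXC region 4 on the higher side had an unadjusted p under 0.05, against 5.09% and 8.2% of all regions. limma-voom called 0 and had 1 region on each side at that level. DESeq2 called 0, had 0 at that level and gave no adjusted p for 12 regions. Over all regions limma-voom called 52 lower and 206 higher, and DESeq2 only 5 lower and 53 higher. The log2 fold change was below 0 at 11 of the 18 HOX regions and at 51.4% of all regions. The median log2 fold change was -0.03 in the HOX regions and -0.01 over all regions, and ran from -0.0833 to 0.0082 when 1 library was left out. By cluster it was -0.02 in HOXA, -0.18 in HOXB, 0.03 in HOXC and 0.04 in HOXD. Both 4 h libraries were below DMSO at 6 regions and above it at 5, arrangements found at 20.6% and 20.2% of all regions. The 2 h and 4 h comparisons share the DMSO libraries.

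The 6 regions that had neither the highest DMSO level nor the largest fold change against DMSO in their cluster, and are not in HOXC, HOXA regions 1, 2, 3 and 6, HOXB region 1 and HOXD region 3, had log2 fold changes between -0.16 and 0.12 at 2 h and between -0.21 and 0.06 at 4 h. Their edgeR adjusted p-values were 0.711 or higher at 2 h and 0.661 or higher at 4 h. The standard errors of the 18 regions ran from 0.149 to 0.196 at 2 h and from 0.150 to 0.195 at 4 h.

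**Figure D3:**
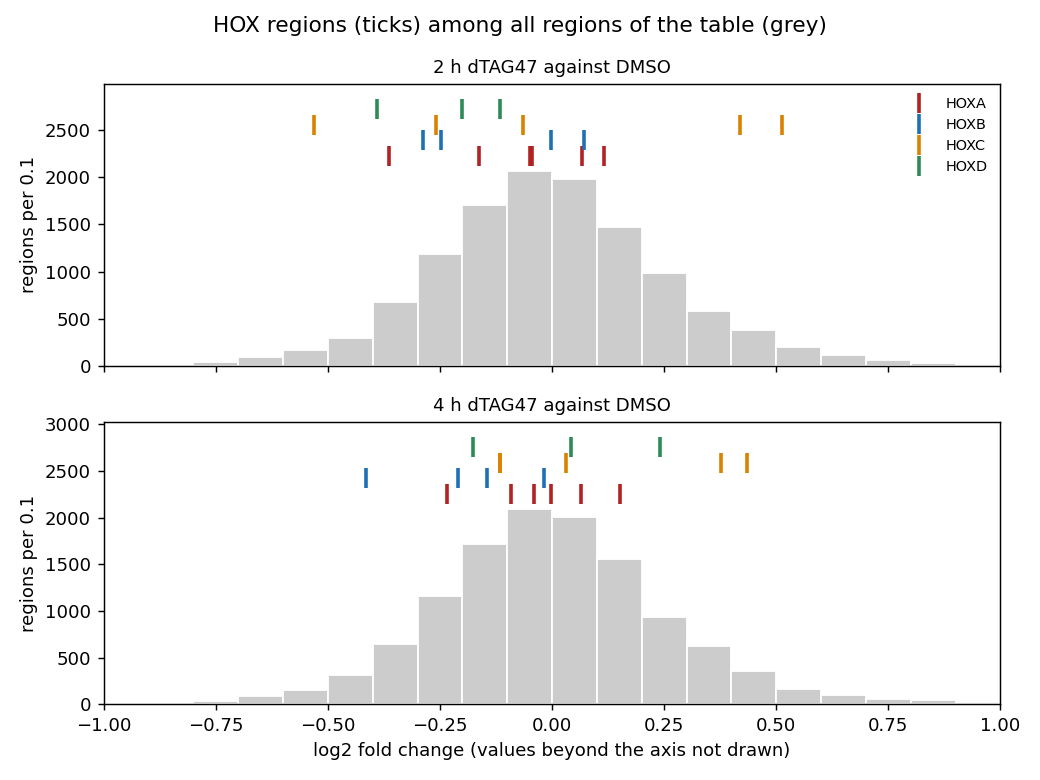
Log2 fold change against DMSO (horizontal axis, limited to -1 to 1) for all regions of the table as grey bars (vertical axis, number of regions per 0.1), with each HOX region as a tick coloured by cluster, at 2 h (upper panel) and 4 h (lower panel). The heights of the ticks only separate the clusters. The HOX ticks run from -0.53 to 0.51 at 2 h and from -0.42 to 0.44 at 4 h, inside the full range of all regions. The outermost ticks lie beyond the quartiles of all regions, which are -0.17 and 0.15 at 2 h and -0.16 and 0.15 at 4 h.

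Between 2 h and 4 h the direct comparison called 0 of the 18 regions and 0% of all regions in edgeR. At an unadjusted p under 0.05, 0 HOX regions were lower at 4 h and 2 were higher, HOXC region 1 and HOXD region 1, against 2.07% and 1.2% of all regions. limma-voom also had 0 calls, with 2 HOX regions higher at that level, and DESeq2 had 0 calls and 0 HOX regions at that level. Over all regions both tools called 0 as well. The median log2 fold change from 2 h to 4 h was 0.08 in the HOX regions and -0.003 over all regions, with 7 HOX regions and 50.5% of all regions below 0. Both 4 h libraries lay above both 2 h libraries at 7 HOX regions and below them at 1, arrangements found at 15.1% and 16.4% of all regions. All 3 regions of HOXD had a log2 fold change above 0, between 0.16 and 0.44. The lowest value was at HOXB region 1, the one region with both 4 h libraries below both 2 h libraries (-0.28, SE 0.173, unadjusted p = 0.109, edgeR adjusted p = 0.998).

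Sums over the regions of a cluster showed small differences between groups. The HOXA sum was 478 and 470 CPM in DMSO libraries A and B, 469 and 426 CPM at 2 h, and 487 and 444 CPM at 4 h. Both 2 h libraries were below DMSO, and the 4 h libraries lay on either side. The HOXB sum was 253 and 311 CPM in DMSO, 265 and 259 CPM at 2 h, and 256 and 237 CPM at 4 h, and the groups overlapped at both times. The gap between its DMSO libraries, which comes mostly from region 2, was larger than any difference between group means.

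For HOXC the sum was 315 and 309 CPM in DMSO, 307 and 336 CPM at 2 h, and 326 and 361 CPM at 4 h, with both 4 h libraries above DMSO. HOXD had 145 and 172 CPM in DMSO, 127 and 140 CPM at 2 h, and 166 and 154 CPM at 4 h, with both 2 h libraries below DMSO. As a share of the DMSO mean, the 2 h mean was 94.5% in HOXA, 92.9% in HOXB, 103% in HOXC and 84.2% in HOXD, and the 4 h mean was 98.3%, 87.3%, 110% and 101%. Over all 18 regions the sum was 1227 ± 50.9 CPM in DMSO, 1164 ± 4.24 CPM at 2 h and 1215 ± 26.8 CPM at 4 h (SD, n = 2 each).

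**Figure D4:**
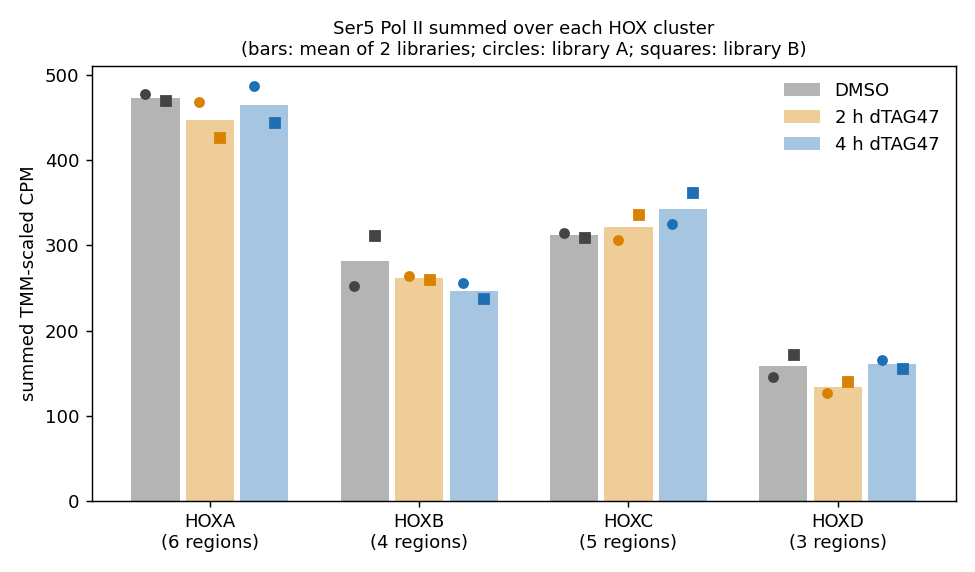
TMM-scaled CPM summed over the regions of each HOX cluster (vertical axis) in DMSO (grey), 2 h dTAG47 (orange) and 4 h dTAG47 (blue). Bars are means of 2 libraries, circles library A and squares library B. HOXD has a mean of 159 CPM in DMSO, 133 CPM at 2 h and 160.1 CPM at 4 h, and HOXB shows a wide gap between its DMSO libraries.

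Regions next to the windows were also listed. Below HOXA, the nearest was 72.2 kb from HOXA region 1 (chr7:27063302-27063702) and weak. It had 25.3 ± 2.94 CPM in DMSO against 15.1 ± 5.54 CPM at 2 h (SD, n = 2, log2 fold change -0.75, edgeR adjusted p = 0.267). Above HOXA the next region was 488.8 kb away. HOXB had its nearest neighbours 470.2 kb below and 102.3 kb above, and HOXC 246.4 kb below and 143.0 kb above. Below HOXD, the nearest region was 90.5 kb from HOXD region 1 (chr2:176866702-176867102) and had 74.0 ± 6.0 CPM in DMSO and 90.0 ± 6.95 CPM at 2 h (SD, n = 2, log2 fold change 0.28, edgeR adjusted p = 0.409), more in DMSO than any region of HOXD. The next region above HOXD was 139.0 kb away. None of these 8 neighbours passed the threshold at either time.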

How the data were processed

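Ser5 Pol II ChIP-seq of 6 libraries was used, and 12 libraries of the series made with other antibodies were not analysed here. The deposited values are raw read counts of regions, whole numbers, as the values themselves show. Tools named per the submitters' processing notes were Bowtie2, DESeq2, DiffBind, MACS2 and Trimmomatic 0.32, with the builds dm3 and hg19. Their roles, and how regions were called and counted, were not given in the sources used here. Regions are in hg19, printed as deposited, and whether starts count from 0 or 1 is not given. Columns carry letters and labels carry numbers, so columns were tied to groups only.

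All 12123 regions were fitted with edgeR 4.0.16 in R 4.3.3 (quasi-likelihood test, TMM factors, 3 groups in 1 fit), with Benjamini-Hochberg adjustment over all regions and a threshold of 0.05. filterByExpr removed 0 regions. Standard errors are the log2 fold change divided by the square root of F, and 95% intervals use 46.6 degrees of freedom. Of these, 43.6 come from the estimate of spread shared over all regions. Libraries of a group differed by more than sampling noise over all regions (chi-square per degree of freedom 2.33, 1.50 and 2.26 in DMSO, 2 h and 4 h), so each counted as 1 replicate. At the HOX regions alone the same measure was lower, at 1.27, 1.15 and 0.990. No spike-in scaling was used here, so a change of all regions by 1 factor would not be seen. Alternatives used DESeq2 1.42.0, limma 3.58.1, other scalings, filters and sets of libraries.

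Regions described one by one with fold changes were, in each cluster, the highest in DMSO and the largest fold change against DMSO at each time, then the lowest p among all 18 in each comparison, and all of HOXC. HOXB region 1 is also given with a fold change, chosen after its values were seen. The windows, lists and rule were chosen with earlier results of these data known. The planned checks of muscle markers and of HOX cofactor genes needed gene assignments in hg19 and were not run. Sequences of the regions are not printed, because a genome of that build was not used here.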

Additional observations from a re-analysis of the deposited data

Results flagged for a closer look

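At 2 of the 18 HOX regions (11.1%, against 1.37% of all regions) both 2 h libraries lay on one side of DMSO and both 4 h libraries on the other. For HOXD region 1 the log2 fold change was -0.20 after 2 h and 0.24 after 4 h, with 49.7 ± 0.668 CPM in DMSO, 43.4 ± 3.12 CPM at 2 h and 58.3 ± 4.05 CPM at 4 h (SD, n = 2 each). For HOXC region 3 it was -0.0655 after 2 h and 0.0312 after 4 h, with 66.5 ± 2.14, 63.7 ± 0.812 and 68.1 ± 0.0936 CPM. The direct comparison of 4 h with 2 h gave an edgeR adjusted p of 0.998 at both, with log2 fold changes of 0.44 and 0.10. With total count scaling the 4 h value of HOXC region 3 was -0.02, so its side of DMSO depended on the scaling. Even with TMM factors the margin there was very narrow, with 68.05 CPM in 4 h library A against 68.03 CPM in DMSO library A.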

How the results depend on the processing

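No HOX region was called at 4 h, or between 2 h and 4 h, under any of 16 alternatives (DESeq2 left 12 of 18 without an adjusted p at 4 h). At 2 h, 1 region, HOXC region 4, was called higher with only the 2 groups compared. Over all regions that fit called 81 lower and 366 higher, against 48 and 269 in the main fit. At an adjusted p under 0.1, HOXC region 4 and HOXC region 1 (1 higher and 1 lower) were called. Over all regions that threshold gave 112 lower and 400 higher. Leaving out 1 library gave between 0 and 1 higher calls at 2 h: 1 without 4 h library A (HOXC region 4, edgeR adjusted p = 0.0388) and 1 without 4 h library B (adjusted p = 0.0356). Lower calls stayed at 0.

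A replicate block by column letter called 1 region higher at 2 h, HOXC region 4 (0.50, edgeR adjusted p = 0.0134), and 1 lower, HOXC region 1 (-0.53, adjusted p = 0.0296). Over all regions it moved the 2 h calls from 48 lower and 269 higher to 230 and 629, and the 4 h calls from 59 and 184 to 203 and 540. Deviations of same-letter libraries correlated with r of 0.218, 0.278 and 0.158 between groups. The letters are not tied to the numbers in the labels, with 2 libraries a group they give only 2 pairs, and letter A is also the deeper library in each group, so the pairing is not known.

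The HOX median was -0.152 at 2 h and -0.0825 at 4 h with total count scaling, and between -0.175 and -0.0478 at 2 h and between -0.0833 and 0.0082 at 4 h when 1 library was left out. Its sign at 4 h changed without library B of either DMSO or the 4 h group. Total count scaling moved the summed level to 487 CPM for HOXA and 321 CPM for HOXC in DMSO and to 258 CPM for HOXB at 2 h. Leaving out 1 library moved these to between 467.0 and 475.5 CPM, 307.3 and 313.0 CPM, and 259.7 and 266.1 CPM.

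Values of named regions that changed sign were these. HOXB region 2 was 0.0235 with limma-voom, 0.0015 with only the 2 groups compared and 0.0034 with the block at 2 h, and 0.0074 with limma-voom and 0.007 with the block at 4 h. It ran from -0.29 to 0.31 at 2 h and from -0.30 to 0.30 at 4 h when 1 library was left out. HOXA region 5 at 2 h was 0.0429 with the share of the 3 highest regions as covariate and ran from -0.28 to 0.15. HOXD region 2 at 4 h ran from -0.37 to 0.0183, and HOXC region 3 at 4 h was -0.0221 with total count scaling. The cause was not tested. With 42 to 185 counts a library, standard errors near 0.17 limit what can be told apart.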
